A study of Arabidopsis thaliana and Hordeum vulgare and Setaria italica with 13 samples.

Results

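The data describe the transfer RNAs (tRNAs) of foxtail millet, Setaria italica, a grass crop, as read by YAMAT-seq and set against tRNA-seq of the same species. All 80 tRNA sequences listed in the S. italica YAMAT-seq file were used, of 532 sequences listed in the 5 YAMAT-seq files of the series. Each sequence was placed in a family by its anticodon, read as the middle 3 bases of the 7-base anticodon loop, and the reads were summed per family. The series holds 13 libraries of 7 plant species, of which 2 are compared here: 1 YAMAT-seq library of S. italica and 1 tRNA-seq library of S. italica. Both came from 10-day-old seedlings raised in soil at 23 °C, under days of 16 h light and 8 h dark, and both used RNA that had passed through a pretreatment kit. The labels name no treatment of the plants, cultivar or number of plants. With 1 library per side no test was possible, so a difference between the assays could not be set against replicate spread.

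A tRNA carries an amino acid to the ribosome and reads codons with its anticodon. Different tRNA sequences with the same anticodon are called isodecoders. In plants the nucleus, the plastids and the mitochondria each have their own tRNA genes, and a mature tRNA of each kind ends in the bases CCA, to which the amino acid is attached. YAMAT-seq uses a Y-shaped adapter to capture folded full-length tRNAs that have this CCA end. The tRNA-seq library was made instead with a small RNA kit, after a treatment meant for tRNAs and their fragments. The ratio between the assays therefore compares cDNA made in different ways, and neither share is a direct count of tRNA molecules in the plant.

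The YAMAT-seq library held 6851530 reads. Of these, 89.5% belonged to 1 sequence, 5 sequences held 99%, and 69 of the 80 had under 1000 reads. The sequences below are the leading ones of the 5 families with the most reads, together with the other AspGTC sequences that held at least 1% of that family. They are written 5′ to 3′ as deposited in the DNA alphabet, and the capitals mark the anticodon. Names follow the authors' numbering within the species.
tR130, GlyGCC: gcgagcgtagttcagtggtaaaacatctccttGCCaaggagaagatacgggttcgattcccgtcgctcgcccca
tR40, GlnTTG: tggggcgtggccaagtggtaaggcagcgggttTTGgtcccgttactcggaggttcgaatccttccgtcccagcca
tR31, AspGTC: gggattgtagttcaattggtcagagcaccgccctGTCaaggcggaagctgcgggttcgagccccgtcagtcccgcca
tR80, AspGTC: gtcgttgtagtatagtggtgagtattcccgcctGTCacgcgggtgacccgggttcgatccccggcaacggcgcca
tR42, AspGTC: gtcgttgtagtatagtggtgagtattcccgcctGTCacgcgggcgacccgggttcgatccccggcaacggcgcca
tR103, ArgTCT: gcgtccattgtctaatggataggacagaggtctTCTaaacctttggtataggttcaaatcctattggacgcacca
tR11, MetCAT: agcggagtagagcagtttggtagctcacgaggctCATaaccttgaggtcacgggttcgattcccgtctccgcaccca

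GlyGCC, whose tRNAs read glycine codons, held 89.5% of the YAMAT-seq reads (95% Clopper-Pearson interval 89.50 to 89.55), against 2.95% in tRNA-seq, a 30.4-fold higher share. GlnTTG, a glutamine family, held 6.57% of YAMAT-seq (6.55 to 6.58) and 1.94% of tRNA-seq. AspGTC, the aspartate family, held 2.97% of YAMAT-seq (2.95 to 2.98) and 1.30% of tRNA-seq. These 3 families led YAMAT-seq, where no other family reached 1%, while 18 families reached 1% in tRNA-seq. The intervals cover counting error alone: the reads carry no molecular identifiers, so PCR copies count as separate reads. The depth of tRNA-seq is not stated, so its percentages and the denominators of the ratios carry no interval. Its values above 0 come in whole steps of 0.0117%, so the small ones are coarse.

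Among the 32 families with reads in YAMAT-seq and a value above 0 in tRNA-seq, the 3 families just named were at least 2-fold higher in YAMAT-seq, which is 9.38% of those compared. The other 29, or 90.6%, were at least 2-fold lower, and none lay within 2-fold. The log2 ratio of YAMAT-seq over tRNA-seq had a median of -8.92. Among the families that were lower it ran between -18.29 and -1.16. Across these families the ranks of the 2 assays had a Spearman correlation of 0.17, given as a description, since all points share the same 2 libraries. Concentration also differed: 1 family held more than 50% of YAMAT-seq and 3 held 99%, whereas tRNA-seq needed 4 and 30 families.

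**Figure D1:**
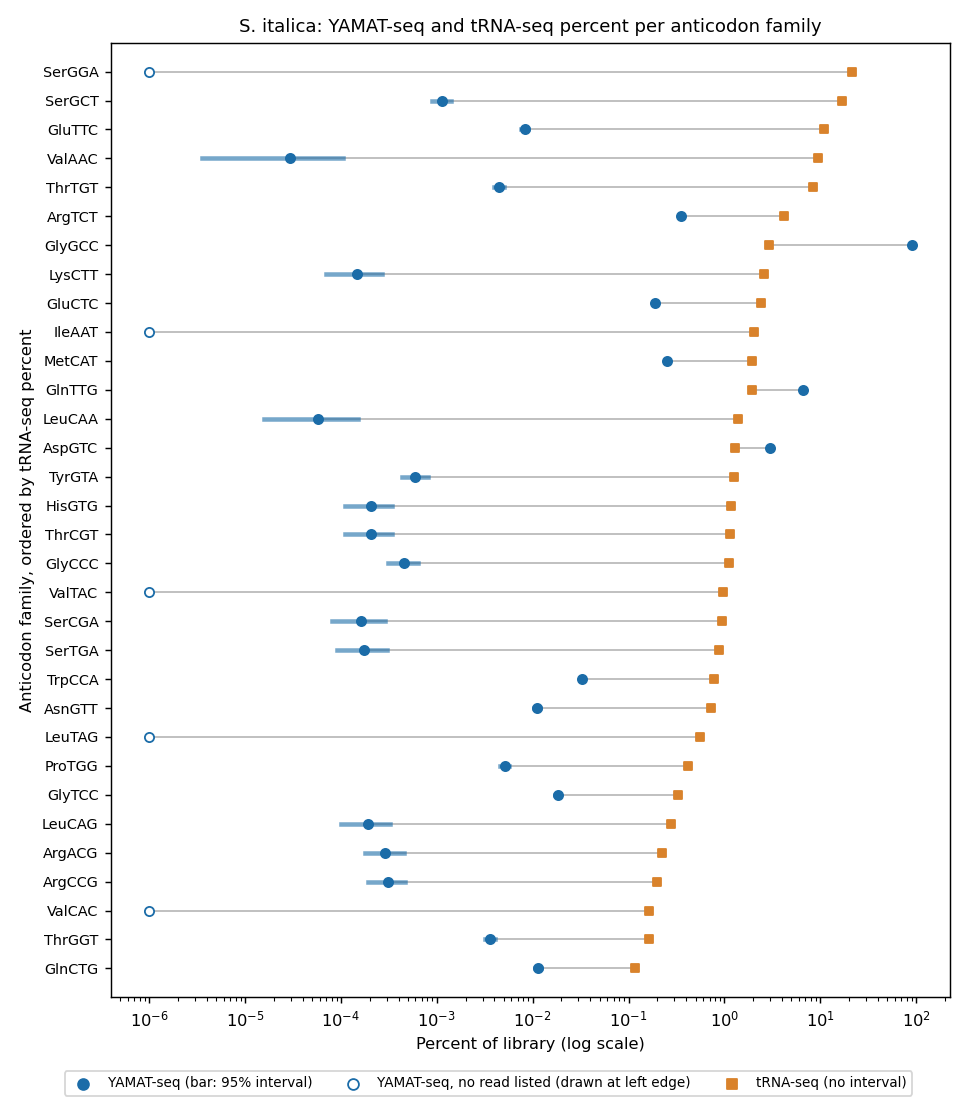
Percent of the library on a log axis for the 32 anticodon families at 0.1% or more in either assay, ordered by tRNA-seq, with YAMAT-seq as circles (bars are 95% intervals), tRNA-seq as squares, and open circles for families with no read listed in YAMAT-seq. The YAMAT-seq circle lies to the right of the square for GlyGCC (89.5% against 2.95%), GlnTTG and AspGTC, and to the left for the other families.

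Since GlyGCC fills most of the YAMAT-seq library, every other family's percent depends on it. Leaving GlyGCC out of both totals moved all log2 ratios up by 3.21. Then 3 of 31 families were at least 2-fold higher in YAMAT-seq, or 9.68%, and 22, or 71%, were at least 2-fold lower. GlnTTG was 31.3-fold higher, AspGTC 21.2-fold higher and CysGCA, the cysteine family, 4.16-fold higher on that scale. CysGCA thus changed sides: it held 0.0367% of YAMAT-seq and 0.0818% of tRNA-seq of the full totals, 2.23-fold lower. Its tRNA-seq value is a small number of steps of 0.0117%, so the call just past 2-fold on the full totals is loose. The 6 families within 2-fold on that scale were ArgTCT, GluCTC, MetCAT, GlyTCC, GlnCTG and ProCGG. With GlnTTG and AspGTC left out as well, a setting chosen after seeing the data, 9 of 29 families were higher (31%) and 18 lower (62.1%). On that scale TrpCCA, AsnGTT, ProTGG and ThrGGT, lower in YAMAT-seq otherwise, also had log2 ratios above 0, of 2.06, 0.61, 0.27 and 1.13. Directions below refer to the full totals, and those of the families just named, other than GlnTTG and AspGTC, depend on that choice.

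**Figure D2:**
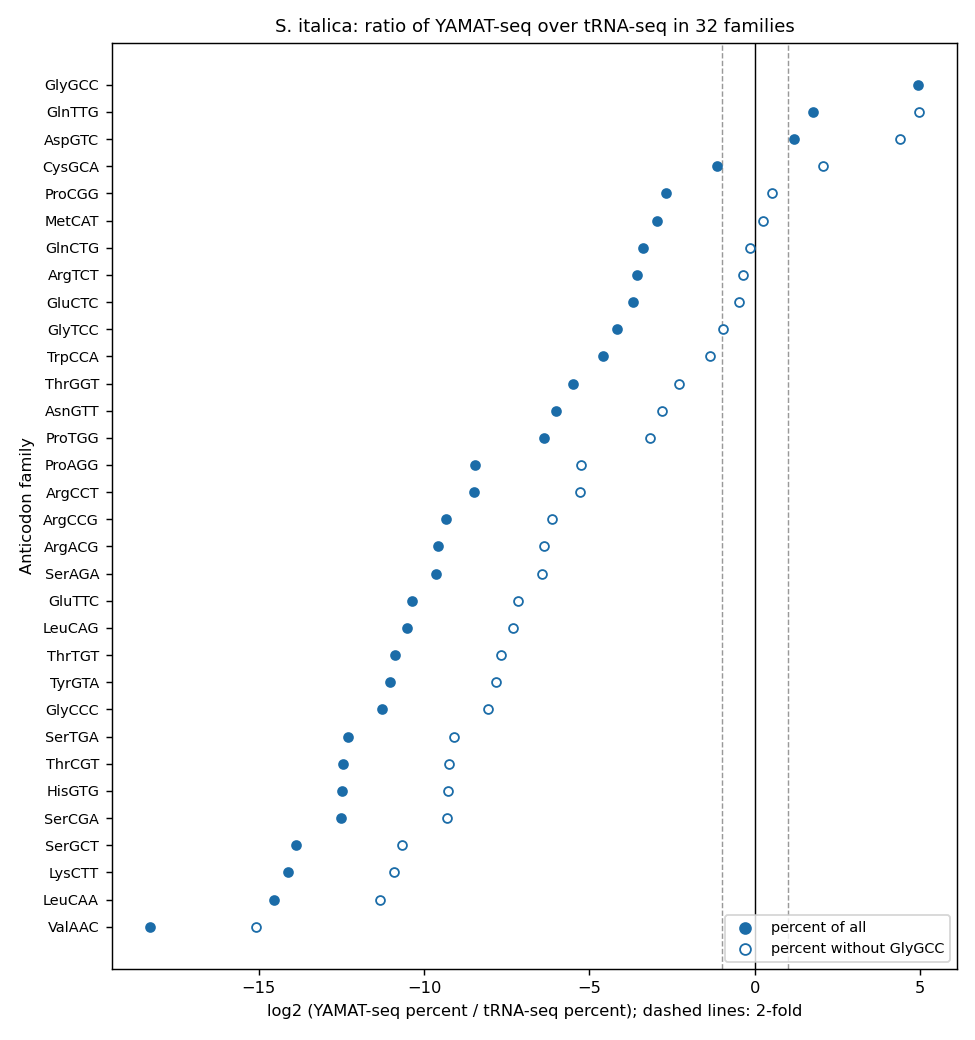
The log2 ratio of YAMAT-seq percent over tRNA-seq percent for the 32 families above 0 in both assays, as filled circles for percent of all and open circles for percent without GlyGCC, with dashed lines at 2-fold. The open circles lie 3.21 to the right of the filled ones, and CysGCA passes from below the lower line to above the upper one.

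By amino acid, the glycine and alanine families together held 89.55% of YAMAT-seq and 4.47% of tRNA-seq. Among the 3 glycine families GlyGCC led in both assays, and the second place differed. GlyTCC held 0.0182% of YAMAT-seq and 0.327% of tRNA-seq, 18.0-fold lower. GlyCCC held 0.000452% (31 reads) of YAMAT-seq and 1.12% of tRNA-seq, 2480-fold lower. GlyGCC was therefore the sole glycine family that was higher. No alanine tRNA was listed in YAMAT-seq, and AlaAGC and AlaCGC each held 0.0351% of tRNA-seq.

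The glutamine, glutamate, aspartate and asparagine families held 9.75% of YAMAT-seq and 17.5% of tRNA-seq, with 2 families higher and 4 lower. Without GlyGCC in the totals they held 93.1% of YAMAT-seq and 18.0% of tRNA-seq. The glutamate families were both lower. GluTTC is also the anticodon of the plastid tRNA-Glu, known to feed the synthesis of chlorophyll precursors, though no plastid-like GluTTC sequence was listed in YAMAT-seq. The family held 0.00826% of YAMAT-seq (566 reads) and 11.0% of tRNA-seq, 1332-fold lower. GluCTC held 0.187% of YAMAT-seq and 2.40% of tRNA-seq, 12.8-fold lower, so the glutamate family that led was a different one in each assay. GlnCTG held 0.0113% of YAMAT-seq and 0.117% of tRNA-seq, 10.3-fold lower, and AsnGTT, the asparagine family, held 0.0111% of YAMAT-seq and 0.725% of tRNA-seq, 65.2-fold lower.

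Serine and leucine tRNAs are known for a long variable arm between the anticodon and T stems. In YAMAT-seq they held 123 reads, or 0.00180% (0.00149 to 0.00214), against 42.4% in tRNA-seq. All 6 families of these amino acids with values in both assays were lower, also without GlyGCC. SerGGA was the largest family of tRNA-seq at 21.4% and had no read listed in YAMAT-seq. SerGCT followed at 0.00112% of YAMAT-seq (77 reads) and 16.9% of tRNA-seq, 15073-fold lower. These were the first and the second family of tRNA-seq, and neither was among the first 17 of YAMAT-seq.
SerTGA had 12 reads in YAMAT-seq, or 0.000175%, against 0.888% in tRNA-seq. SerCGA had 11 reads in YAMAT-seq, or 0.000161%, against 0.935% in tRNA-seq. Both thus lay under 1% in either assay, and they were 5073-fold and 5825-fold lower in YAMAT-seq. Of the leucine families, LeuCAA had 4 reads in YAMAT-seq, or 5.84e-05%, against 1.39% in tRNA-seq. LeuCAG had 13 reads in YAMAT-seq, or 0.000190%, against 0.281% in tRNA-seq. LeuTAG, at 0.561% of tRNA-seq, had no read listed.

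The valine, isoleucine, threonine and proline families held 1430 reads, 0.0209% of YAMAT-seq, against 23.0% of tRNA-seq. The valine family ValAAC had 2 reads in YAMAT-seq, against 9.36% in tRNA-seq. Its share was 2.92e-05%, and the ratio of YAMAT-seq over tRNA-seq was 3.12e-06, with a counting interval between 3.78e-07 and 1.13e-05. ThrTGT, a threonine family, held 0.00445% of YAMAT-seq and 8.44% of tRNA-seq, 1896-fold lower. These 2 families were the fourth and the fifth of tRNA-seq.
ThrCGT held 0.000204% of YAMAT-seq and 1.16% of tRNA-seq. ThrGGT held 0.00359% of YAMAT-seq and 0.164% of tRNA-seq. ThrTGT and ThrGGT thus lay close together in YAMAT-seq, at 305 and 246 reads, and far apart in tRNA-seq. ProTGG, a proline family, held 0.00509% of YAMAT-seq and 0.421% of tRNA-seq, 82.6-fold lower. ProCGG held 0.00724% of YAMAT-seq and 0.0468% of tRNA-seq, 6.46-fold lower, the smallest difference of this group. Its tRNA-seq value is only a few steps of 0.0117%, so that ratio is coarse. The isoleucine family IleAAT (2.05% of tRNA-seq) and the valine families ValTAC (0.970%) and ValCAC (0.164%) had no read listed.

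Among the arginine, lysine and histidine families YAMAT-seq held 0.357% and tRNA-seq 8.45%, with all 6 that could be compared lower. ArgTCT made up nearly all of it in YAMAT-seq and was its largest family in tRNA-seq, at 0.355% of YAMAT-seq (0.351 to 0.360) and 4.17% of tRNA-seq, 11.7-fold lower. LysCTT, the lysine family, had 10 reads in YAMAT-seq, or 0.000146%, against 2.62% in tRNA-seq. HisGTG, the histidine family, had 14 reads, or 0.000204%, against 1.18% in tRNA-seq. These were 17942-fold and 5778-fold lower. ArgACG (20 reads) held 0.000292% of YAMAT-seq and 0.222% of tRNA-seq. ArgCCG (21 reads) held 0.000307% of YAMAT-seq and 0.199% of tRNA-seq.

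MetCAT, the methionine anticodon, which initiator and elongator tRNAs share, had 17418 reads, all of 1 sequence, or 0.254% of YAMAT-seq, against 1.96% of tRNA-seq, 7.73-fold lower. A tRNA-Ile whose anticodon is CAT in the gene would fall in the same family and cannot be told apart by this rule. Of the aromatic families, TrpCCA, for tryptophan, held 0.0324% of YAMAT-seq and 0.772% of tRNA-seq, 23.8-fold lower. TyrGTA, for tyrosine, held 0.000598% of YAMAT-seq (41 reads) and 1.26% of tRNA-seq, 2110-fold lower. PheGAA, for phenylalanine, had 78 reads in YAMAT-seq and was listed at 0 in tRNA-seq. ArgTCG, with 8 reads, was the other family with YAMAT-seq reads that tRNA-seq lists at 0. PheGAA and ArgTCG lie under 0.1% in both assays, and they were picked out for naming once their values were known. Their YAMAT-seq shares, 0.00114% and 0.000117%, lie below 0.0117%, the smallest tRNA-seq value above 0. The 0 in tRNA-seq therefore does not show a difference between the assays.

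In all, 11 families above 0 in tRNA-seq had no read listed in YAMAT-seq, and they held 25.3% of tRNA-seq. Those not named above were IleTAT (0.0935%), ThrAGT (0.0351%), LeuAAG and LeuTAA (0.0117% each). The sources used here do not say which tRNA sequences the authors searched for, so such a family is called not listed, with no upper limit on its share. Another 7 families of the tRNA-seq table were at 0 in tRNA-seq and had no read listed. By the first anticodon base, families with A held 0.000671% of YAMAT-seq (46 reads) and 11.9% of tRNA-seq. Those with G held 92.5% of YAMAT-seq and 46.0% of tRNA-seq, those with T 6.96% of YAMAT-seq and 28.8% of tRNA-seq, and those with C 0.494% of YAMAT-seq and 13.3% of tRNA-seq. The G share of YAMAT-seq was mostly GlyGCC: without that family it was 28.8%, against 44.4% in tRNA-seq. The direction for T also depends on GlyGCC. Without GlyGCC in the totals, families with T held 66.4% of YAMAT-seq and 29.7% of tRNA-seq, mostly through GlnTTG in YAMAT-seq. Families with C (4.72% against 13.7%) and A (0.00641% against 12.2%) stayed lower in YAMAT-seq.

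Within the families, the reads were spread over several listed sequences in 23 families, which hold 69 of the 80 sequences. The other 11 families had 1 sequence each. One of the 23 is TyrGTA, whose 7 sequences differ only in an extra stretch described below and are 1 sequence without it. In the 23 families the leading sequence held a median of 82.8% of the reads, and it held over 90% in 7 of them. Reads per sequence had a median of 17.5, and 26 sequences had under 10 reads. The shares within families of few reads therefore have wide intervals: the leading TyrGTA sequence held 41.5%, with an interval of 26.3 to 57.9.

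**Figure D3:**
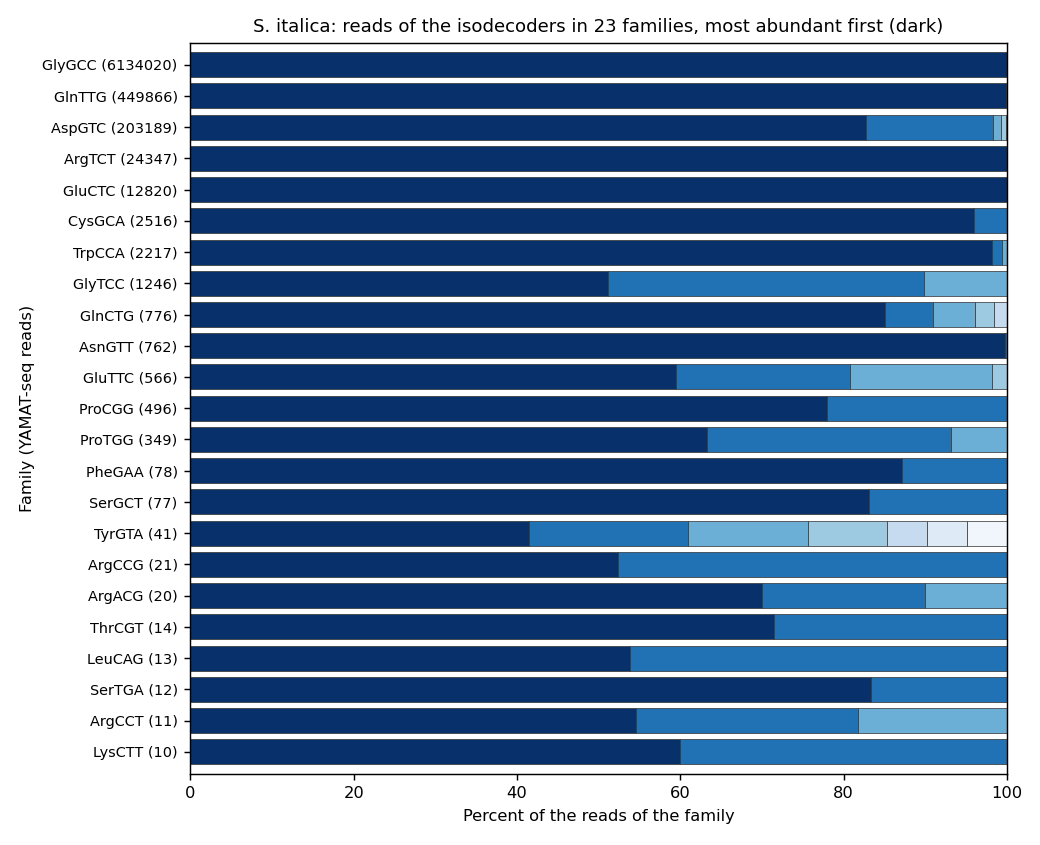
Percent of a family's YAMAT-seq reads held by each listed sequence, most abundant first and darkest, in the 23 families with several sequences, with the family's reads in brackets. GlyGCC, GlnTTG, ArgTCT and GluCTC are filled almost wholly by 1 sequence, AspGTC shows a second one at 15.5%, and GlyTCC, GluTTC and TyrGTA are split. The TyrGTA sequences differ only in an extra stretch described below.

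GlyGCC had 3 sequences. tR130 held 6133365 reads, 99.99% of the family. tR129 held 447 reads, 13721 times fewer than tR130. It differed from tR130 by the single change G55A, with positions counted from 1 at the 5′ end here and below. Whether a sequence this rare at 1 edit is a separate tRNA or a read error was not tested. tR13 held 208 reads and differed from tR130 by 23 edits, that is, substituted, inserted or deleted bases. The glycine signal of YAMAT-seq was thus 1 sequence.

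GlnTTG had 4 sequences, of which tR40 held 449124 reads, 99.8% of the family. The other 3 were tR161 with 645 reads, tR75 with 86 and tR86 with 11. They formed a group of their own, at 34 or 35 edits from tR40. tR75 differed from tR161 by A9G alone, and tR86 differed from it by A9G, G22T and G45A.

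AspGTC had 5 sequences and was the most divided of the large families. tR31 held 168263 reads or 82.8% (82.6 to 83.0), and tR80 held 31400 reads or 15.5%. Between these 2 sequences there were 26 edits, visible in the lines printed above. tR42 (2184 reads) carried T44C relative to tR80, and tR33 (1139 reads) carried C27T, G43A and T44C relative to it. tR23, with 203 reads, was 22 edits from tR31 and 29 from tR80.

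Among the next families, ArgTCT was 99.96% tR103 (24337 reads), and MetCAT was 1 sequence, tR11, in which 6 of 7 acceptor stem pairs form. GluCTC was 99.97% tR104 (12816 reads). Its other 2 sequences, tR163 with 3 reads and tR24 with 1 read, carried T1A and C28T relative to tR104. With so few reads these may be read errors, which was not tested. CysGCA was 96.0% tR3 (2415 reads), and tR72 (101 reads) differed from it by T16C, C45T and C66T. TrpCCA was 98.2% tR73 (2177 reads), and AsnGTT was 99.7% tR22 (760 reads).

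Smaller families were more evenly split. GlyTCC is the clearest case, since its 3 sequences differ by few bases and all have over 100 reads. They are printed here with the anticodon in capitals, chosen after their values were seen, beside the leading GluCTC sequence, the largest family whose sequences all lay nearest to nuclear tRNAs.
tR93, GlyTCC: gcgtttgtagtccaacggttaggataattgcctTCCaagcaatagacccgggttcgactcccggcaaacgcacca
tR124, GlyTCC: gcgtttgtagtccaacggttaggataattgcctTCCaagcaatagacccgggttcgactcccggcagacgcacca
tR82, GlyTCC: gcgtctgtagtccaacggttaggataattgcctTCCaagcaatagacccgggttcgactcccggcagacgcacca
tR104, GluCTC: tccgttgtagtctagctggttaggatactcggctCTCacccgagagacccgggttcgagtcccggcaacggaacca

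tR93 held 638 reads or 51.2% of GlyTCC (48.4 to 54.0), tR124 held 482 reads or 38.7%, and tR82 held 126 reads or 10.1%. Relative to tR93, tR124 carries A67G, and tR82 carries T5C and A67G. GluTTC was split over tR99 (337 reads, 59.5%), tR77 (120), tR51 (99) and tR175 (10). tR77 and tR51 differed by T13C and T16C, and both were 8 or 9 edits from tR99. GlnCTG had 5 sequences, led by tR71 with 660 reads, or 85.1%, followed by tR113 with 46 reads. ProCGG had tR5 with 387 reads and tR144 with 109, which carries C49T. ProTGG had tR64 with 221 reads, tR140 with 104 and tR2 with 24.

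Over all families there were 87 pairs of listed sequences with the same anticodon. Of these, 18 pairs, in 14 families, differed by 1 edit, and 24 pairs, in 11 families, by 20 edits or more. The 87 include 21 TyrGTA pairs, some of them at 1 edit, which differ only in an extra stretch described below. Without that stretch the TyrGTA sequences are 1 sequence, so they are not isodecoders as mature tRNAs. In 3 of the 18 pairs at 1 edit the more abundant sequence had at least 100 times the reads of the other, and in 13 it had under 10 times.

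The tyrosine family showed another kind of difference. Nuclear tRNA-Tyr genes of plants hold an intron beside the anticodon, which is spliced out to make the mature tRNA. All 7 TyrGTA sequences listed in YAMAT-seq held an extra stretch of 12 to 15 bases at that place, though each ended in CCA. Removing that stretch left the same sequence of 76 bases in all 7 cases. The 41 reads of the family were spread over them, with 17, 8, 6, 4, 2, 2 and 2 reads. No TyrGTA sequence without such a stretch was listed. The 3 with the most reads are printed with the extra stretch in capitals, chosen after their values were seen.
tR69, TyrGTA: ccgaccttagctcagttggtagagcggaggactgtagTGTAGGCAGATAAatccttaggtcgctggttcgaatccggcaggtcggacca
tR79, TyrGTA: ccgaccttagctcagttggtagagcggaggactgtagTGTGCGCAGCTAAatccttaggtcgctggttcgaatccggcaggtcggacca
tR53, TyrGTA: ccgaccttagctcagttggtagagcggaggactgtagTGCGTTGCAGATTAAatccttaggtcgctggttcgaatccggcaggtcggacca

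The counts do not show whether the reads covered that stretch. Length followed the same division between families. The sequences were 74 to 91 bases long with CCA. The 16 sequences longer than 77 bases were the 7 of tyrosine and the 9 of serine and leucine, and they held 164 reads, 0.00239% of the library. The serine and leucine sequences were also the only ones of the 80 with a variable region of 10 or more bases. Sequences of 74 bases held 89.6% of the reads, nearly all from tR130.

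Setaria coordinates were not used here, so each sequence was set beside the tRNA genes of Arabidopsis thaliana (assembly TAIR10.1), of which 37 are plastid, 22 mitochondrial and 608 nuclear. A type was given where the nearest gene was at most 16 edits away and the next type at least 5 edits further. By this rule 13 sequences with 96.7% of the reads were nearest to plastid tRNAs. A further 4 sequences with 171226 reads were nearest to plastid or mitochondrial tRNAs that the rule could not separate. The nuclear type took 62 sequences with 51986 reads, 0.759% (0.752 to 0.765), and tR23 was left unassigned. A type is a likeness to A. thaliana and does not place a gene in the S. italica genome.

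**Figure D4:**
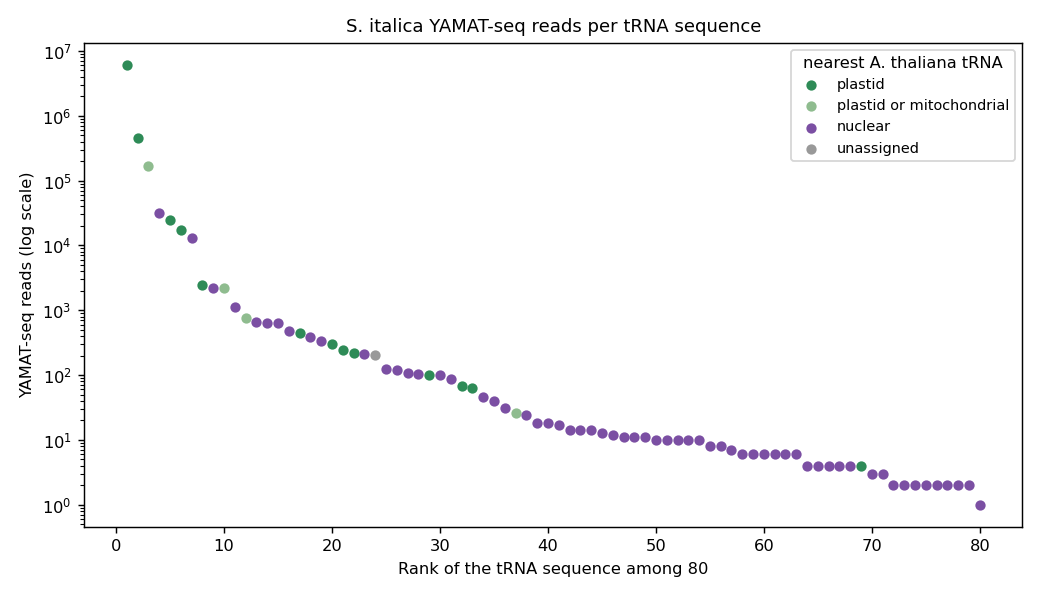
YAMAT-seq reads on a log axis for the 80 S. italica sequences by rank, coloured by whether a plastid, mitochondrial or nuclear tRNA of A. thaliana was nearest. The first 3 sequences, with 98.5% of the reads, are plastid or plastid-or-mitochondrial, and tR80 at rank 4 is the first nuclear one.

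The leading sequence tR130 was 15 edits from its nearest gene, a plastid tRNA-Gly (plastid genome, 36490 to 36560, plus strand). From the nearest mitochondrial gene, a tRNA-Asp, tR130 was 22 edits away, and from the nearest nuclear one, a tRNA-Gly, 23. It lies just inside the limit of 16 edits, as tR129 does at 16, so most of the plastid share rests on the limit. tR40 was 5 edits from the plastid tRNA-Gln (6616 to 6687, minus strand). tR31 was identical, up to its CCA, to the plastid tRNA-Asp (29801 to 29874, minus strand) and 1 edit from a mitochondrial tRNA-Asp. tR103 was 1 edit from a plastid tRNA-Arg (9590 to 9661, plus strand), and tR11 was 8 edits from a plastid tRNA-Met (36704 to 36777, minus strand).
tR80, the second AspGTC sequence, was 1 edit from a nuclear tRNA-Asp on chromosome 1 (877648 to 877719, plus strand) and 26 edits from the plastid tRNA-Asp. AspGTC thus joined sequences of both types. Its nuclear-like sequences held 34723 reads, against 742 in GlnTTG and 208 in GlyGCC. Under narrower limits (12 edits, gap of 3) the plastid share was 7.21%, since tR130 then had no type. With 20 edits and a gap of 8 it was also 7.21%, and 92.0% was plastid or mitochondrial. Most of that 92.0% was tR130, whose distances of 15 edits to the plastid tRNA-Gly and 22 to the mitochondrial tRNA-Asp lie less than 8 apart. The nuclear share stayed at 0.759% under both alternative limits.

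**Figure D5:**
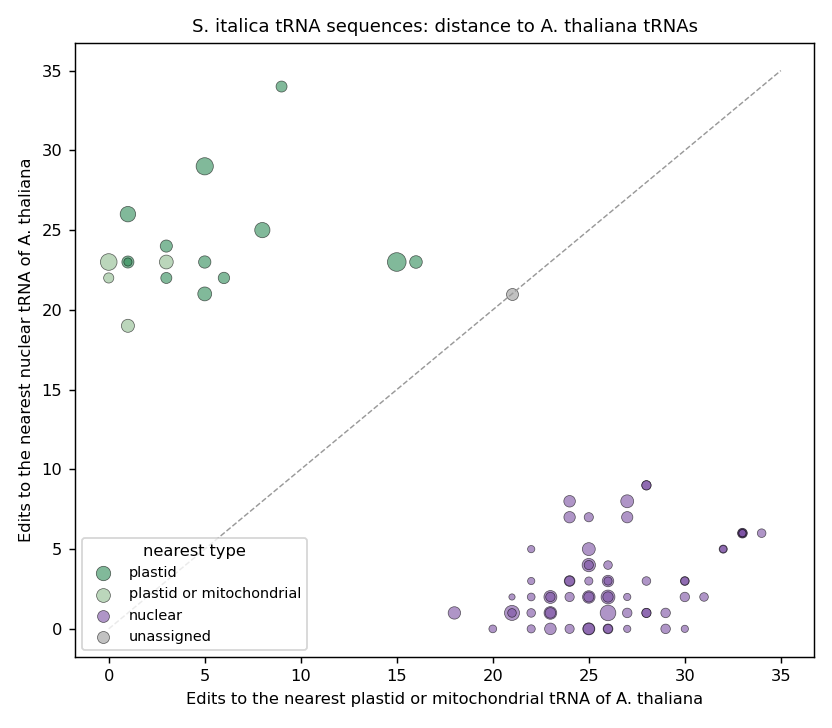
Edits from each S. italica sequence to the nearest plastid or mitochondrial tRNA (x axis) and to the nearest nuclear tRNA (y axis) of A. thaliana, with point area growing with the log of the reads and a dashed line where the distances are equal. Nuclear-like sequences lie within 9 edits of a nuclear tRNA and at least 18 edits from an organelle one, and tR130 lies apart at 15 edits.

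Organelle-like sequences were present in 14 families and nuclear-like ones in 30, with both in 10. In 9 of those 10 families the organelle-like sequences held more reads. The median was 447 reads for an organelle-like sequence and 11 for a nuclear-like one. Within the nuclear-like reads AspGTC held 66.8%, GluCTC 24.7%, GlyTCC 2.40%, GlnCTG 1.49%, GlnTTG 1.43% and GluTTC 1.09%. A few families thus led there too, and 21 of the 30 had under 100 nuclear-like reads each. All 4 GluTTC sequences were nuclear-like, and none was nearest to the tRNA-Glu of the A. thaliana plastid genome. In tRNA-seq the families are not divided by compartment, so its percentages could not be split in this way.

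Compared with the other YAMAT-seq files of the series, 46 of the 80 sequences, with 99.7% of the reads, were listed with the identical bases in at least 1 other species. Maize shared 31 of them, wheat 29, barley 24 and A. thaliana 10. Of these 4 species, tR130 was shared only with maize: it held 89.5% of the S. italica reads, against 95.1% in maize. As a family, however, GlyGCC led YAMAT-seq in every species, with 55.3% in A. thaliana, 76.1% in barley, 84.4% in wheat and 95.1% in maize. In all 5 species its YAMAT-seq share was above its tRNA-seq share, with the leaf library taken for A. thaliana. tR40 was shared with barley and wheat: it held 6.56% of the S. italica reads, against 14.1% in barley and 9.80% in wheat. tR31 was listed in all 5 species, with 2.46% in S. italica, against 6.84% in barley, 3.81% in wheat, 3.81% in maize and 3.66% in A. thaliana.
The nuclear-like tR80 held 0.458% in S. italica, against 0.191% in maize, 0.0381% in barley and 0.00368% in wheat. It thus took the largest share in the S. italica library of the 4 that list it, whereas tR31 took its lowest share there. For tR11 the S. italica share, 0.254%, lay near that of maize, 0.242%, and below barley at 1.82% and wheat at 1.16%. Each species has 1 YAMAT-seq library, so none of these differences could be tested.

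Some families of S. italica stood at or near an end of the order of species in both assays or in 1 of them. The leaf library was taken for A. thaliana in tRNA-seq. Those given here are examples picked after their values were seen. Other families also stood at an end, such as TrpCCA and AsnGTT, lowest of 5 in YAMAT-seq, and GlyTCC, lowest of 7 in tRNA-seq. GlnCTG was the highest of 5 species in YAMAT-seq, at 0.0113% against 0.000494% to 0.00332% in the others, and the lowest of 7 in tRNA-seq, at 0.117% against 0.427% to 21.4%. ProCGG was the highest in both assays, at 0.00724% of YAMAT-seq and 0.0468% of tRNA-seq. Its tRNA-seq place is loose, since that value is only a few steps of 0.0117% and the other species lay between 0 and 0.0217%. GluTTC was the highest of 7 in tRNA-seq, at 11.0% against 0.101% to 8.64%, and SerGGA the second highest, at 21.4% with maize at 25.8%. AspGTC, one of the families higher in YAMAT-seq, was the lowest of 5 there, at 2.97% against 3.96% to 7.21%.

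Other features of the sequences were compared as well. All 80 ended in CCA and formed 5 pairs in the T stem, and 72 formed all 7 acceptor stem pairs. The base before CCA was C in 8 sequences with 89.8% of the reads, G in 26 with 9.57%, A in 32 with 0.579% and T in 14 with 0.0671%. The order by reads thus differed from the order by sequences, since tR130 carries C there.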

How the data were processed

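RNA of S. italica seedlings was profiled once by YAMAT-seq and once by tRNA-seq. Per the labels' protocols, YAMAT-seq cDNA was amplified with 12 PCR cycles. The authors deposited YAMAT-seq as raw read counts for each tRNA sequence, and the lowest count is 1. They deposited tRNA-seq as percent of total tRNA abundance per anticodon, per the file headers. The S. italica percent column sums to 99.92, and its depth is not stated. All its values above 0 are whole multiples of 0.0117%, so a value near that size rests on few steps. Per the submitters' processing notes, cutadapt and TAIR10 were used. For the aligner, the reference tRNAs and the handling of reads that match several tRNAs, details were not given in the sources used here.

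Here the 6851530 counts were summed per anticodon. The anticodon loop was found as 7 bases closed by a stem of 5 pairs, with an intron of 6 to 24 bases allowed. This rule gave the named anticodon in 141 of 143 A. thaliana sequences. Shares carry 95% Clopper-Pearson intervals (scipy 1.17.1). Ratios between assays used no pseudocount, and 2-fold was the threshold. Edits were computed with edlib 1.3.9.post1, and CCA was removed before comparison with A. thaliana, which excluded 17 nuclear genes that lie at most 1 edit from an organelle tRNA. The anticodon search and the interval calculation were tested on simulated data that met their own assumptions. Those data held no introns and no PCR copies, so neither was covered.

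Families at 0.1% or more in either assay were named. The members, lists and rules were chosen with earlier results of these data known. Low-value filters, pseudocounts, denominators, folds, groupings, anticodon rules, merging and edit limits were varied.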

Additional observations from a re-analysis of the deposited data

How the results depend on the processing

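Each assay has 1 library, so leaving out a replicate was not possible and no value has a replicate error. No paired analysis was possible because each group holds 1 library and no test was made. The YAMAT-seq intervals cover counting error, families under 10 reads are loose, and the tRNA-seq depth is not stated.

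Of the alternatives, the GlyGCC share was 0% with the anticodon taken at bases 34 to 36, since its anticodon starts at base 33. The number of families lower in YAMAT-seq was 15 with a pseudocount of 1% on both assays and 14 with amino acids in place of anticodons, where 17 were compared. At 4-fold, 1 family was higher. Without GlyGCC in both totals the log2 ratio of MetCAT was 0.26. Without GlyGCC, GlnTTG and AspGTC, a setting chosen after seeing the data, 9 families were higher and 18 lower. Among the families at 0.1% or more in either assay, 9 turned from a log2 ratio below 0 to one above 0, not all of them past 2-fold. Their log2 ratio was 3.08 for ArgTCT, 2.96 for GluCTC, 3.69 for MetCAT, 2.06 for TrpCCA, 0.61 for AsnGTT, 0.27 for ProTGG, 2.47 for GlyTCC, 1.13 for ThrGGT and 3.27 for GlnCTG. CysGCA, at 5.48, and ProCGG, at 3.95, both under 0.1% in either assay, turned as well. Removing families with larger shares in YAMAT-seq raises every other ratio by construction.

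With at least 10 reads per sequence, 13 families had several sequences. Merging sequences within 1 edit of one with at least 100 times the reads gave a median leading share of 80.4%. The plastid share was 7.21% under both other edit limits, and the plastid or mitochondrial share was 92.0% with 20 edits and a gap of 8. The other 25 of the 36 alternative values for the main results stayed within their counting interval, within 1.5 times for a count, or within 1 percentage point for the median leading share.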
